A study of Mus musculus with 18 samples.

Results

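The RNA of 10 heat shock chaperone genes was followed in mouse hearts after isoproterenol with or without swallowed polystyrene particles. The genes were taken by name, with earlier results of these data known: Hspa1a, Hspa1b, Hspa8, Hsp90aa1, Hsph1, Dnajb1, Hspb1, Hspb7, Hspd1 and Hspe1. They are 10 of the 35560 genes that could be matched between the study's 2 count tables, and all 10 passed the filter on low counts. The hearts came from male wild-type C57BL/6 mice in 3 groups: ISO+100 nm PS (6 libraries), ISO+1 µm PS (6 libraries) and ISO (6 libraries), called 100 nm PS, 1 µm PS and ISO hearts here. Every mouse, the ISO group included, was given isoproterenol (ISO), a beta-adrenergic agonist that overdrives and injures the heart, under the skin at 2.5 mg/kg each day over 21 days. Polystyrene (PS) particles were gavaged at 50 mg/kg each day over the same 21 days, and ISO mice received water by gavage instead. No heart without ISO was analysed here, so a level cannot be set against that of an uninjured heart, and no source used here gives the age of the mice. Each library came from 1 mouse.

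Cytosolic chaperones of the HSP70 family bind unfolded stretches of protein, helped by J-domain partners such as Dnajb1 and by nucleotide exchange factors such as Hsph1. HSP90 takes over clients that are close to folded, and small heat shock proteins such as Hspb1 and Hspb7 hold aggregation-prone proteins, in muscle many of them at the sarcomere. In mitochondria the chaperonin Hspd1 (HSP60) and its lid Hspe1 (HSP10) fold imported proteins. Many of these genes are switched on by heat shock factor Hsf1, which binds repeats of GAA and its complement TTC that alternate in direction.

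Promoter sequence is shown for the members whose windows hold such repeats close together. Of the 10 members, 8 matched a RefSeq promoter table (GRCm38.p6, 250 bases before each start to just past it), and Hspa8 and Hsp90aa1 did not. Capitals mark every GAANNTTC or TTCNNGAA in the stretch shown, pairs that read the same on both strands, and overlapping pairs form 1 run of capitals.

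Hspe1: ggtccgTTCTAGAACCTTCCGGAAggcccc
Hspd1: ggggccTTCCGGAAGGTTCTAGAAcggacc
Hspa1a: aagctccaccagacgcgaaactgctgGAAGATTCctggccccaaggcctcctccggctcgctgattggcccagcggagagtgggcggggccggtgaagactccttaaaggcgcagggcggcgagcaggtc
Hspa1b: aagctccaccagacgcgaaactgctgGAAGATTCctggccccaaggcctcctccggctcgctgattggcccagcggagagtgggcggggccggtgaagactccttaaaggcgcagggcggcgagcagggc
Hspb1: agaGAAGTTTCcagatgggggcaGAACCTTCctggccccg
Hsph1: tagaatctTTCTCGAAggctcgagaagaag

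The Hspe1 and Hspd1 lines are the same 30 bases, chr1:55088053-55088082, read on the plus strand for Hspe1 and on the minus strand for Hspd1, because these genes start back to back and share 1 upstream region. The run of capitals begins 89 bases before the Hspe1 start and 144 bases before the Hspd1 start. Hspa1a (chr17:34972157-34972286, minus strand) and Hspa1b (chr17:34959239-34959368, minus strand) are neighbouring copies whose last 130 bases before the start differed at 1 base, and their 250 bases at 3. The Hspb1 stretch is chr5:135887799-135887838 on the plus strand, and the Hsph1 stretch is chr5:149636348-149636377 on the minus strand. A pair of either kind was present in at least 1 window of 6 of the 8 matched members, which have 11 windows, and in 12.8% of the 32851 promoter windows in the table. Members and windows are unlike units, Hspd1 and Hspe1 share 1 site, and Hspa1a and Hspa1b are near copies. A second Hspd1 window held no pair. At least 3 alternating units in a row were present for Hspd1 and Hspe1 alone among the matched members, and in 0.466% of all windows. The windows of Dnajb1 and Hspb7 held neither pair, which says only that these letters are not in these windows.

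The libraries were sequenced by 2 providers, which the labels call batch 1 and batch 2. Batch 1 holds 5 of the 100 nm PS, 4 of the 1 µm PS and 3 of the ISO libraries, so 100 nm PS replicate 6 is its group's only batch 2 library. Total counts per library ran between 14032257 and 22600570. ISO replicate 2 stood apart, where counts were found for 13152 genes, while the rest of its group had 16562 to 17913. ISO replicates 1 and 6 had the lowest rank correlations between GC content and a gene's level relative to its batch mean, at -0.60 and -0.61. That correlation lay between 0.12 and 0.37 in 100 nm PS libraries, between 0.18 and 0.32 in 1 µm PS libraries and between -0.61 and 0.01 in ISO libraries. Since levels were taken relative to the batch mean, low values in some libraries raise those of others in that batch. The contrast between groups is therefore partly built in. Cardiomyocyte markers were all detected, and the 12 genes summed to 43880 to 92772 CPM (counts scaled to a common library total) in 100 nm PS, 51420 to 125712 CPM in 1 µm PS and 40984 to 102048 CPM in ISO hearts. The 10 fibroblast markers summed to 3835 to 7403 CPM in 100 nm PS, 3971 to 6096 CPM in 1 µm PS and 2534 to 4197 CPM in ISO hearts, and 4 of the 10 rose at 100 nm and 0 at 1 µm. Over both sizes 4 of the 10 rose, and 0 passed between the sizes. Among all genes 3.88% passed as higher at 100 nm, 2.89% at 1 µm and 6.80% over both sizes, where 10.9% passed as lower. Smooth muscle and pericyte markers summed to 1611 to 2210 CPM, 1585 to 2317 CPM and 731 to 2237 CPM in the same order of groups, with 4 of 10 higher at either size. Leukocyte markers summed to 350 to 578 CPM in 100 nm PS, 346 to 547 CPM in 1 µm PS and 306 to 939 CPM in ISO hearts, and none of the 9 tested passed. Skeletal muscle markers summed to 729 to 2971 CPM, 789 to 4059 CPM and 841 to 3722 CPM in the same order, and 3 of the 6 tested were lower over both sizes, as were 2 of 5 erythroid markers. Endothelial markers summed to 2519 to 4149 CPM in 100 nm PS, 2250 to 3799 CPM in 1 µm PS and 2100 to 3488 CPM in ISO hearts. Atrial markers summed to 350 to 3483 CPM, 245 to 947 CPM and 115 to 935 CPM in the same order. Of the 4 atrial markers tested 1, Myl4, was higher at 100 nm and 0 at 1 µm, with median log2 fold changes of 3.10 and 0.48, and Bmp10 was at 0 in all ISO hearts. Between the sizes 0 of the 4 passed. In whole heart RNA, fewer cells of a type and less RNA per cell cannot be told apart, and the part of these differences in the results below was not tested.

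The mitochondrial chaperonin genes were lower in PS hearts. Hspe1 fell at both particle sizes and Hspd1 fell at 100 nm, and these were the only members to pass the test against ISO at either size. At 100 nm 2 of the 10 members passed, both lower, where 9.57% of the 14623 genes tested passed and 5.69% passed as lower. At an unadjusted p under 0.05 there were 5 of 10 members, where 28.6% of all genes were. At 1 µm 1 of the 10 members passed, also lower, where 7.39% of all genes passed and 4.50% passed as lower. At an unadjusted p under 0.05 there were 6 of 10, where 27.0% of all genes were. With the 2 sizes averaged, 2 of the 10 passed, both lower, where 17.7% of all genes passed and 10.9% passed as lower. These 3 comparisons share the same ISO libraries. No member had PS libraries wholly above or wholly below the ISO libraries, which held at 100 nm for 1.63% of genes above and 0.745% below and at 1 µm for 1.12% above and 0.424% below. A gene passed where the adjusted p of edgeR's quasi-likelihood test was under 0.05.

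**Figure D1:**
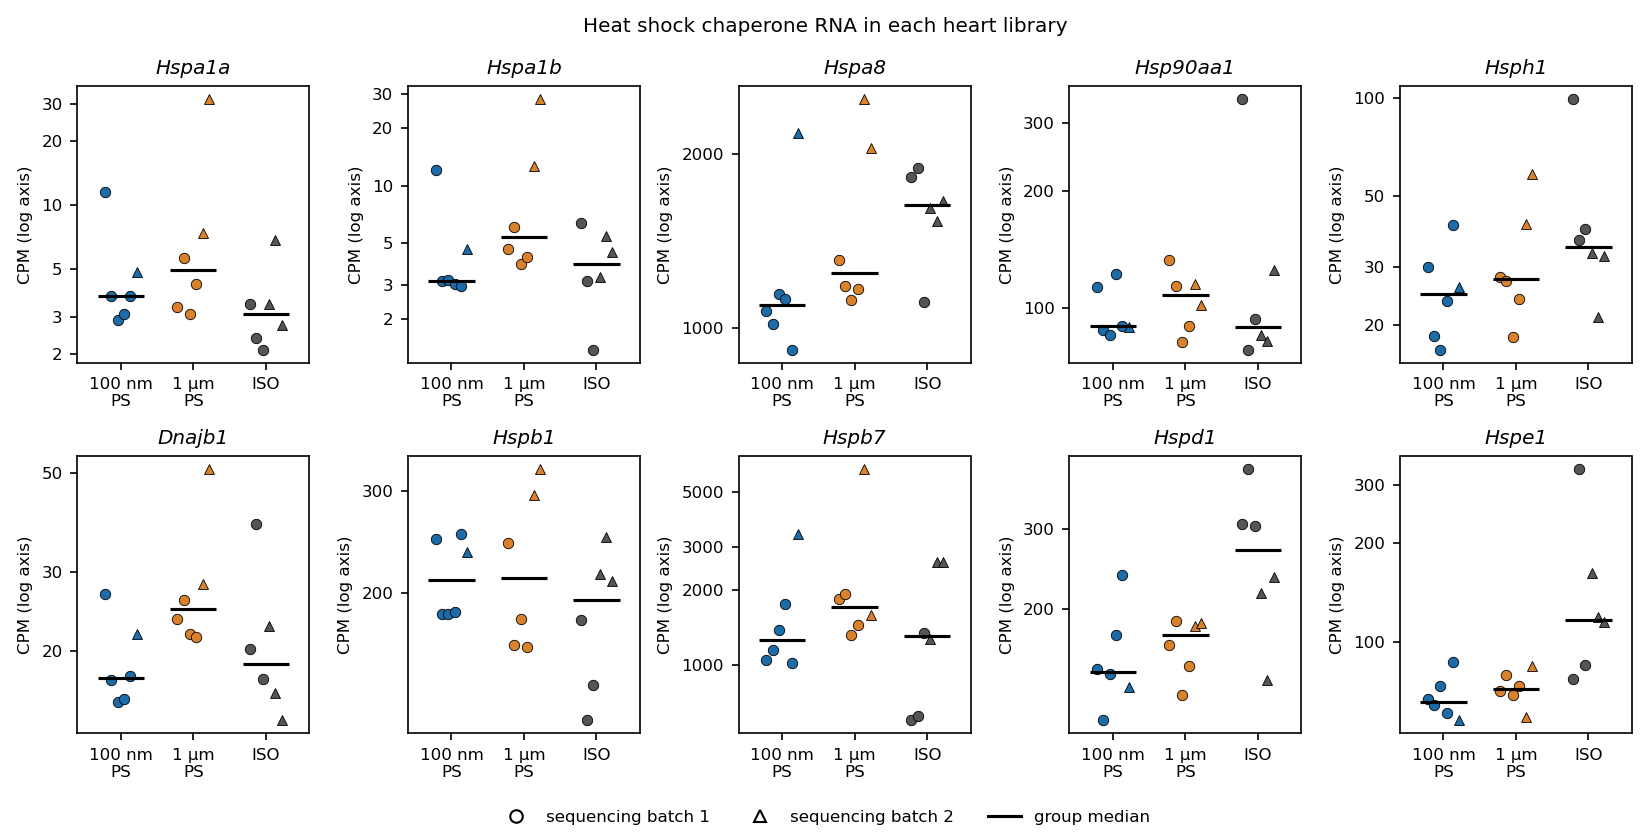
CPM of each chaperone gene on a log axis, 1 point per heart library, with circles for sequencing batch 1, triangles for batch 2 and a line at the group median. Hspe1 lay between 57.7 and 87.2 CPM in the 12 PS libraries, and ISO replicate 2 stood at 336 CPM.

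Hspe1 encodes the lid that closes over the HSP60 barrel. It had 57.7, 65.7 and 87.2 CPM (lowest, median, highest) in 100 nm PS hearts, 59.1, 72.1 and 84.4 CPM in 1 µm PS hearts and 77.3, 117 and 336 CPM in ISO hearts. The PS libraries kept to a narrow low range, and the groups overlapped through ISO replicates 1 and 3, at 77.3 and 85.1 CPM. On average Hspe1 reached 68.4 ± 10.7 CPM at 100 nm, 72.6 ± 8.75 CPM at 1 µm and 149 ± 96.6 CPM in ISO hearts (SD, n = 6 each). It fell by 1.19 on the log2 scale at 100 nm (SE 0.28, adjusted p = 0.0205) and by 1.06 at 1 µm (SE 0.28, adjusted p = 0.0293). Averaged over both sizes it fell by 1.12 (SE 0.23, adjusted p = 0.00516), and 12 of 12 PS libraries lay below the ISO mean of their batch. In batch 1 that mean was raised by ISO replicate 2, and ISO replicates 1 and 3 lay below it as well. How many of all genes reach such a count was not worked out, here or for the members below.

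The size of the Hspe1 change leaned on ISO replicate 2, whose level was the highest of all 18 libraries. Without that library Hspe1 fell by 0.62 at 100 nm (adjusted p = 0.0370), by 0.56 at 1 µm (adjusted p = 0.0442) and by 0.59 over both sizes (adjusted p = 0.0165). Leaving out each of the 18 libraries in turn kept the 100 nm call in 17 fits and lost it without 100 nm PS replicate 6 (adjusted p = 0.0641). The 1 µm call held in 12 of 18 fits, and was lost without 1 µm PS replicate 1, 2, 3, 4 or 5 or ISO replicate 4, with adjusted p up to 0.0675. The call over both sizes held in all 18.

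Hspd1 encodes HSP60 itself. Its levels were 113, 145 and 237 CPM (lowest, median, highest) in 100 nm PS hearts, 129, 175 and 188 CPM in 1 µm PS hearts and 139, 270 and 408 CPM in ISO hearts. The groups overlapped through the batch 2 ISO hearts: replicate 5, at 139 CPM, lay within the range of both PS groups, and replicates 4 and 6, at 217 and 235 CPM, lay below the highest 100 nm PS heart. In batch 1 they did not overlap: 113 to 237 CPM at 100 nm and 129 to 188 CPM at 1 µm lay below 305 to 408 CPM in ISO hearts. That rests on 3 ISO hearts, and the share of all genes doing so within batch 1 was not counted. Within batch 1, Hspb1 at 100 nm also lay wholly above the ISO hearts and Hsph1 at 1 µm wholly below them. Hspd1 averaged 158 ± 43.7 CPM at 100 nm, 167 ± 23.7 CPM at 1 µm and 269 ± 92.7 CPM in ISO hearts (SD, n = 6 each). It fell by 0.83 at 100 nm (SE 0.22, adjusted p = 0.0287), while at 1 µm the log2 fold change was -0.69 (SE 0.22, adjusted p = 0.0586). Over both sizes it fell by 0.76 (SE 0.18, adjusted p = 0.0109), with 12 of 12 PS libraries below the ISO mean of their batch. Without ISO replicates 1 and 2 together Hspd1 passed in none of these comparisons, at -0.59 for 100 nm (adjusted p = 0.139), -0.47 for 1 µm (adjusted p = 0.182) and -0.53 over both sizes (adjusted p = 0.0955). The 100 nm call held in 14 of 18 fits that left out a library, and was lost without 100 nm PS replicate 1, 2, 3 or 6 (adjusted p up to 0.0734). At 1 µm it passed in 1 of 18, without ISO replicate 5 (-0.81, adjusted p = 0.0229). Pseudogene copies of Hspd1 carried 1.25% to 6.37% of its count in batch 1 and at most 0.0324% in batch 2.

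The ratio of Hspd1 to Hspe1 CPM ran between 1.76 and 2.88 in 100 nm PS hearts, between 1.87 and 3.10 in 1 µm PS hearts and between 1.17 and 3.98 in ISO hearts. Once group and batch means were removed, the pair varied with a Pearson r of 0.33 over the 18 libraries (permutation p = 0.186, adjusted 0.31) and a Spearman rho of 0.08 (permutation p = 0.762, adjusted 0.816). Without ISO replicate 5 and 100 nm PS replicate 2, the 2 farthest libraries for Hspd1, r was 0.37. ISO replicate 2, the highest library for Hspe1, was kept in that value. Within batch 1 r was 0.41 and within batch 2 it was 0.09.

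**Figure D2:**
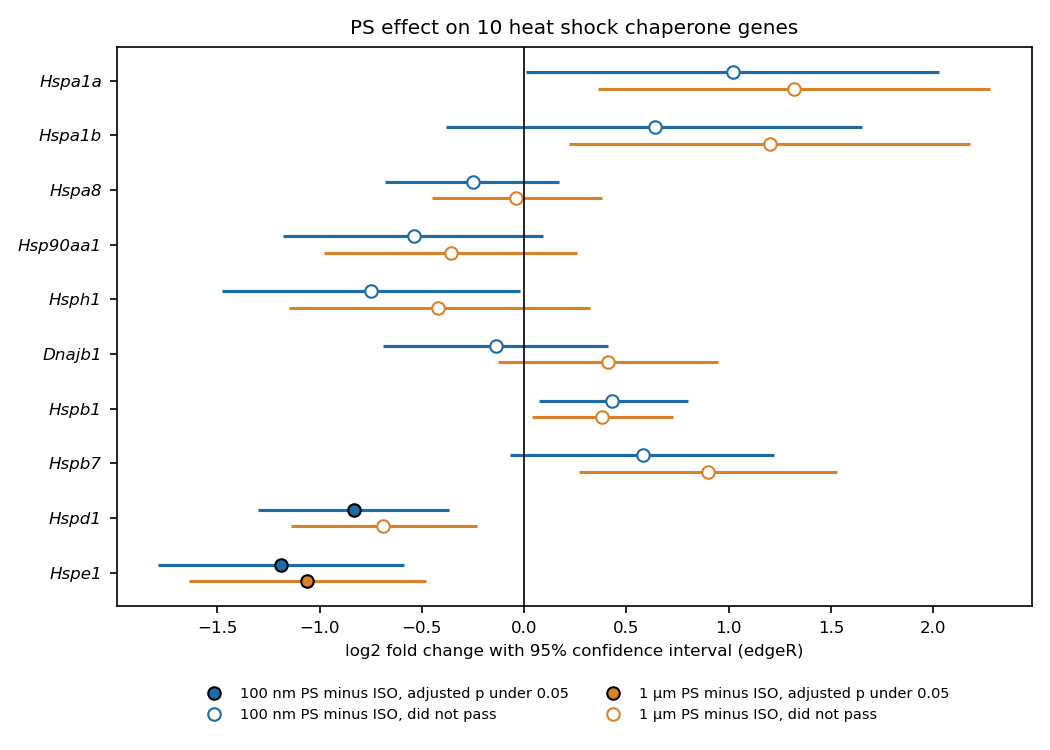
Log2 fold change against ISO (horizontal axis) of each chaperone gene, blue for 100 nm PS and orange for 1 µm PS, with bars for the 95% confidence interval of edgeR's fit and filled points where the adjusted p was under 0.05. The filled points are Hspd1 at 100 nm and Hspe1 at both sizes, all left of 0, while Hspa1a, Hspb1 and Hspb7 lie right of 0 without passing.

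The stress-inducible HSP70 genes were scarce and varied widely. Hspa1a had 2.90, 3.74 and 11.5 CPM (lowest, median, highest) in 100 nm PS hearts, 3.07, 4.95 and 31.8 CPM in 1 µm PS hearts and 2.09, 3.08 and 6.85 CPM in ISO hearts. The groups overlapped, and the high values were single hearts, 100 nm PS replicate 1 and 1 µm PS replicate 6. Its log2 fold change was 1.02 at 100 nm (95% interval 0.01 to 2.03, adjusted p = 0.170) and 1.32 at 1 µm (0.36 to 2.28, adjusted p = 0.0784). The change over both sizes was 1.17 (adjusted p = 0.0587), and 12 of 12 PS libraries lay above the ISO mean of their batch. Without 1 µm PS replicate 6 the 1 µm value was 0.62. Over both sizes Hspa1a passed once 100 nm PS replicate 6 was left out (adjusted p = 0.0469), and likewise once ISO replicate 1 was (1.36, adjusted p = 0.0468).

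Hspa1b, the second copy, had 2.99, 3.18 and 12.1 CPM in 100 nm PS hearts, 3.88, 5.36 and 28.5 CPM in 1 µm PS hearts and 1.38, 3.90 and 6.40 CPM in ISO hearts. The highest heart of each PS group was the same as for Hspa1a, and the groups overlapped again. Its log2 fold change was 0.64 at 100 nm (-0.38 to 1.65, adjusted p = 0.401) and 1.20 at 1 µm (0.22 to 2.18, adjusted p = 0.111). Single libraries moved both: the 100 nm value was 0.06 without 100 nm PS replicate 1 and 1.17 without ISO replicate 1. The 1 µm value was 0.74 without 1 µm PS replicate 6 and 1.60 without ISO replicate 1, where it passed (adjusted p = 0.0329), as did the value over both sizes, 1.39 (adjusted p = 0.0329). The 2 transcripts share much sequence: 47.1% of the 100-base windows of Hspa1a and 49.9% of those of Hspa1b occur unchanged in the other, so how reads were split between them is uncertain. Summed to 1 gene they gave 0.81 at 100 nm (adjusted p = 0.254) and 1.24 at 1 µm (adjusted p = 0.0836).

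Hspa8, the HSP70 made at all times (HSC70), was far more abundant than Hspa1a and Hspa1b in every heart. It had 915, 1094 and 2176 CPM in 100 nm PS hearts, 1117, 1244 and 2494 CPM in 1 µm PS hearts and 1107, 1633 and 1892 CPM in ISO hearts. All 3 PS hearts of batch 2 were at 2050 CPM or above, while every PS heart of batch 1 was at or below 1308 CPM. The ratio of Hspa8 to Hspa1a and Hspa1b together was 45.3, 165 and 228 (lowest, median, highest) in 100 nm PS, 34.0, 131 and 164 in 1 µm PS and 124, 234 and 340 in ISO hearts. Against ISO the log2 fold change of Hspa8 was -0.25 at 100 nm (-0.68 to 0.17, adjusted p = 0.419) and -0.04 at 1 µm (-0.45 to 0.38, adjusted p = 0.922).

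Dnajb1 (HSP40) stimulates the ATPase of HSP70, and its 3 groups overlapped. It had 15.4, 17.4 and 26.9 CPM in 100 nm PS hearts, 21.5, 24.8 and 51.1 CPM in 1 µm PS hearts and 14.0, 18.7 and 38.5 CPM in ISO hearts. Its log2 fold change was -0.14 at 100 nm (adjusted p = 0.754) and 0.41 at 1 µm (adjusted p = 0.312). Without ISO replicate 2, the highest ISO heart, the values became 0.20 at 100 nm and 0.70 at 1 µm (adjusted p = 0.0310). Hsph1 (HSP110) recharges HSP70 with ATP, and it had 16.7, 24.9 and 40.7 CPM in 100 nm PS hearts, 18.3, 27.7 and 58.4 CPM in 1 µm PS hearts and 21.1, 34.8 and 99.6 CPM in ISO hearts. ISO replicate 1 was the highest library for Hsph1, well above the other ISO hearts. The log2 fold change of Hsph1 was -0.75 at 100 nm (-1.48 to -0.02, adjusted p = 0.166) and -0.42 at 1 µm (adjusted p = 0.464), and without ISO replicate 1 it was -0.22 and 0.02.

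Hsp90aa1, the inducible HSP90, had 85.3, 89.6 and 122 CPM in 100 nm PS hearts, 81.7, 108 and 133 CPM in 1 µm PS hearts and 77.9, 89.3 and 347 CPM in ISO hearts. Apart from ISO replicate 1 at 347 CPM, all libraries lay between 77.9 and 133 CPM. Its log2 fold change was -0.54 at 100 nm (adjusted p = 0.245) and -0.36 at 1 µm (adjusted p = 0.455), and without ISO replicate 1 it turned to 0.11 and 0.21.

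**Figure D3:**
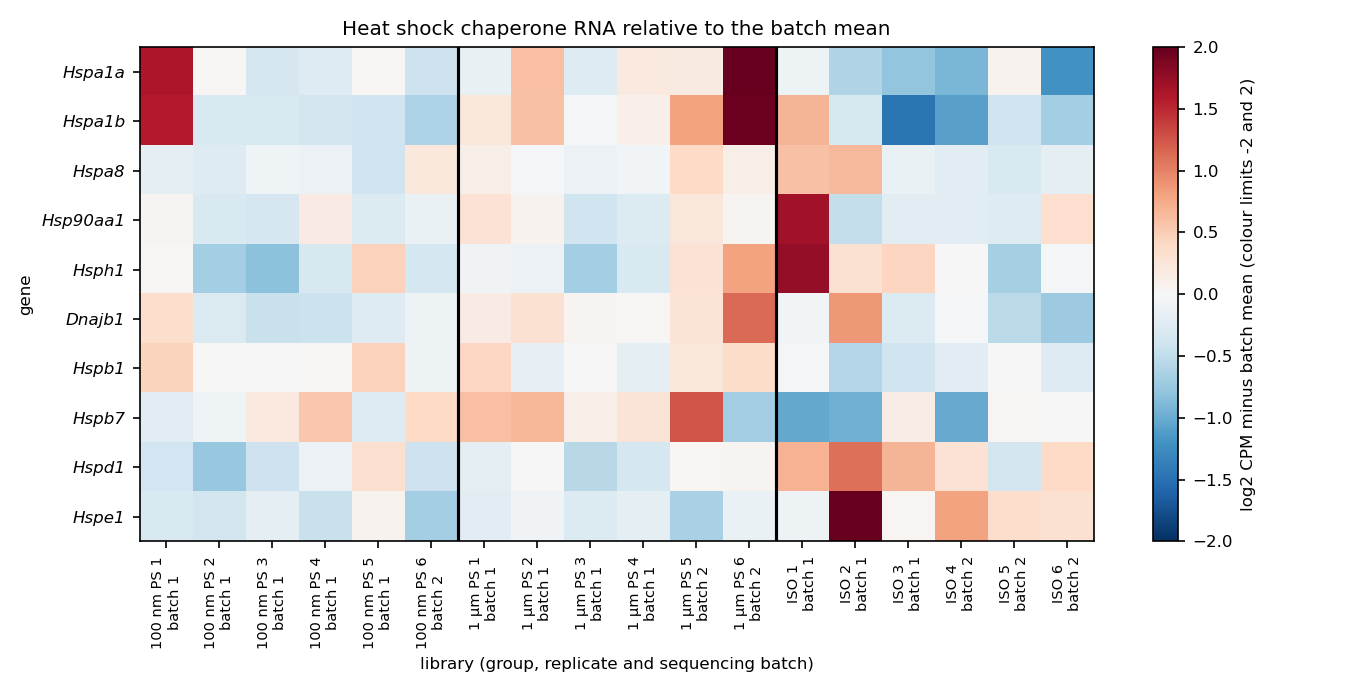
Log2 CPM of each chaperone gene (rows) minus its mean over the libraries of the same batch, in every library (columns: 100 nm PS, 1 µm PS, ISO), red for above and blue for below that mean. Hspd1 and Hspe1 are mostly blue in PS hearts, and 1 µm PS replicate 6 and 100 nm PS replicate 1 carry the red of Hspa1a and Hspa1b, at 31.8 and 11.5 CPM for Hspa1a.

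Both small heat shock protein genes had positive fold changes that did not pass, and that of Hspb1 was negative after correction for GC content. Hspb1 (HSP27 in human, HSP25 in mouse), which protects actin filaments, had 184, 211 and 253 CPM in 100 nm PS hearts, 162, 213 and 327 CPM in 1 µm PS hearts and 121, 195 and 250 CPM in ISO hearts. The groups overlapped widely, with a small difference that ran the same way in 12 of 12 PS libraries against the ISO mean of their batch. Its log2 fold change was 0.43 at 100 nm (0.07 to 0.80, adjusted p = 0.110) and 0.38 at 1 µm (0.04 to 0.73, adjusted p = 0.146). Hspb7, a small heat shock protein of heart and skeletal muscle, had 1017, 1268 and 3381 CPM in 100 nm PS hearts, 1329, 1719 and 6157 CPM in 1 µm PS hearts and 600, 1312 and 2606 CPM in ISO hearts. The lowest hearts were ISO replicates 1 and 2, at 600 and 625 CPM, and the highest was 1 µm PS replicate 5. The log2 fold change of Hspb7 was 0.58 at 100 nm (-0.07 to 1.22, adjusted p = 0.222) and 0.90 at 1 µm (0.27 to 1.53, adjusted p = 0.0677), and 11 of 12 PS libraries lay above the ISO mean of their batch. At 1 µm Hspb7 passed without 1 µm PS replicate 6 (1.11, adjusted p = 0.0339) and likewise once ISO replicate 3 was left out (1.14, adjusted p = 0.0217). Over both sizes it did so at 0.88 (adjusted p = 0.0215) and 0.99 (adjusted p = 0.0219). Without ISO replicates 1 and 2 together Hspb7 was weaker, at 0.29 for 100 nm (adjusted p = 0.631) and 0.64 for 1 µm (adjusted p = 0.217). Over both sizes it was then 0.46 (adjusted p = 0.324). Over both sizes Hspb1 passed without 100 nm PS replicate 6 (0.48, adjusted p = 0.0496) and likewise once ISO replicate 1 was left out (0.49, adjusted p = 0.0364).

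Per kilobase of transcript, Hspb7 and Hspa8 were the most abundant members and Hspa1a and Hspa1b the least. Hspb7 averaged 586 ± 327 CPM per kilobase in 100 nm PS, 861 ± 673 in 1 µm PS and 545 ± 326 in ISO hearts (SD, n = 6 each). Hspa8 averaged 393 ± 148, 492 ± 183 and 507 ± 87.9 CPM per kilobase in the same order of groups, so these neighbours in the order did not differ beyond their spread. Hspb1 came next, at 231 ± 36.4 CPM per kilobase at 100 nm, 246 ± 76.4 at 1 µm and 200 ± 52.7 in ISO hearts. Hspe1 and Hspd1 followed side by side, Hspe1 at 71.0 ± 11.1, 75.3 ± 9.07 and 155 ± 100 CPM per kilobase and Hspd1 at 65.3 ± 18.0, 68.9 ± 9.77 and 111 ± 38.2 CPM per kilobase in the same order. The remaining order was Hsp90aa1, then Dnajb1 and Hsph1 within each other's spread, then Hspa1b and Hspa1a, which averaged 1.74 ± 1.29 and 1.67 ± 1.10 CPM per kilobase in 100 nm PS hearts. Spread between hearts of a group followed another order: the biological coefficient of variation was 0.542 for Hspa1b and 0.532 for Hspa1a, against 0.213 for Hspb1 and a median of 0.306 over all genes.

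Particle size made no difference that passed. In 100 nm PS against 1 µm PS hearts, 0 of 10 members and 0 of 14623 genes passed with edgeR, and with DESeq2 0 passed as well. At an unadjusted p under 0.05 there was 1 member, Dnajb1, and 0.335% of all genes. The difference of Dnajb1 was -0.55 on the log2 scale (95% interval -1.10 to -0.00, unadjusted p = 0.0497, adjusted p = 1.00). For the chaperonin genes the intervals were -0.61 to 0.31 around -0.15 for Hspd1 and -0.71 to 0.45 around -0.13 for Hspe1. For Hspa1a and Hspa1b they were wide, -1.29 to 0.71 and -1.58 to 0.46. No member separated the sizes without overlap, which 0.0274% of genes did with 100 nm PS above and 0.00684% with it below.

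Several cytosolic members had fold changes of opposite sign in the 2 batches, but no member passed a test of that difference. Within batch 1, Hsph1 was lower in PS hearts over both sizes (log2 fold change -1.22, adjusted p = 0.0283), where 1940 of 15088 genes passed. That value includes ISO replicate 1 at 99.6 CPM, while the other batch 1 ISO hearts had 36.4 and 39.5 CPM of Hsph1. Within batch 2 the Hsph1 value was 0.31. For Hspa8 the values were -0.52 in batch 1 (adjusted p = 0.0788) and 0.47 in batch 2 (adjusted p = 0.334), and for Dnajb1 they were -0.28 and 0.73. For Hspe1 they were -1.20 (adjusted p = 0.0362) and -1.04 (adjusted p = 0.0629), and for Hspd1 -1.08 (adjusted p = 0.0115) and -0.34 (adjusted p = 0.495). The batch 1 value of Hspe1 leaned on ISO replicate 2, since the other batch 1 ISO hearts, at 77.3 and 85.1 CPM, lay within the range of the batch 1 PS hearts, 60.7 to 87.2 CPM. By size, batch 1 alone gave no Hspe1 call, at -1.23 for 100 nm (adjusted p = 0.0664) and -1.17 for 1 µm (adjusted p = 0.103). A test of the difference itself, the change of the PS effect between batches, passed for 0 of 10 members and for 0.328% of all genes with edgeR. The smallest p-values were those of Hsph1, with batch 2 minus batch 1 at 1.69 (SE 0.52, unadjusted p = 0.00437, adjusted p = 0.105), and Hspa8 at 0.98 (SE 0.28, unadjusted p = 0.00235, adjusted p = 0.0815).

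GC content moved with the direction of the members. All 5 members above 50% GC, Hspb1 at 61.7%, Hspa1a at 58.9%, Hspa1b at 58.1%, Hspb7 at 57.5% and Dnajb1 at 52.7%, had positive fold changes over both sizes. All 5 below 50%, Hsph1 at 47.3%, Hspd1 at 46.8%, Hspa8 at 45.9%, Hspe1 at 45.5% and Hsp90aa1 at 43.7%, had negative ones. Among all genes, those that rose over both sizes had a median GC content of 56.7% and those that fell 43.8%, against 49.8% for every gene tested. With each library corrected for GC content, Hspe1 stood at -1.40 at 100 nm (adjusted p = 0.0559) and -1.23 at 1 µm (adjusted p = 0.102). Hspd1 stood at -0.95 at 100 nm (adjusted p = 0.0596) and -0.77 at 1 µm (adjusted p = 0.128). Over both sizes the corrected values passed, at -1.32 for Hspe1 (adjusted p = 0.0169) and -0.86 for Hspd1 (adjusted p = 0.0234), beside a median of all genes of -0.13. The fold changes over both sizes of the 5 members above 50% GC shrank or turned with the correction, to 0.57 for Hspa1a, 0.27 for Hspa1b, 0.27 for Hspb7, -0.19 for Dnajb1 and -0.30 for Hspb1. By size, Hspb1 became -0.31 at 100 nm and -0.30 at 1 µm, and Hspa1b became -0.08 at 100 nm. Across all genes the correction left 1 call at 100 nm, 2 at 1 µm and 1829 over both sizes, where 1399, 1081 and 2590 passed without it.

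**Figure D4:**
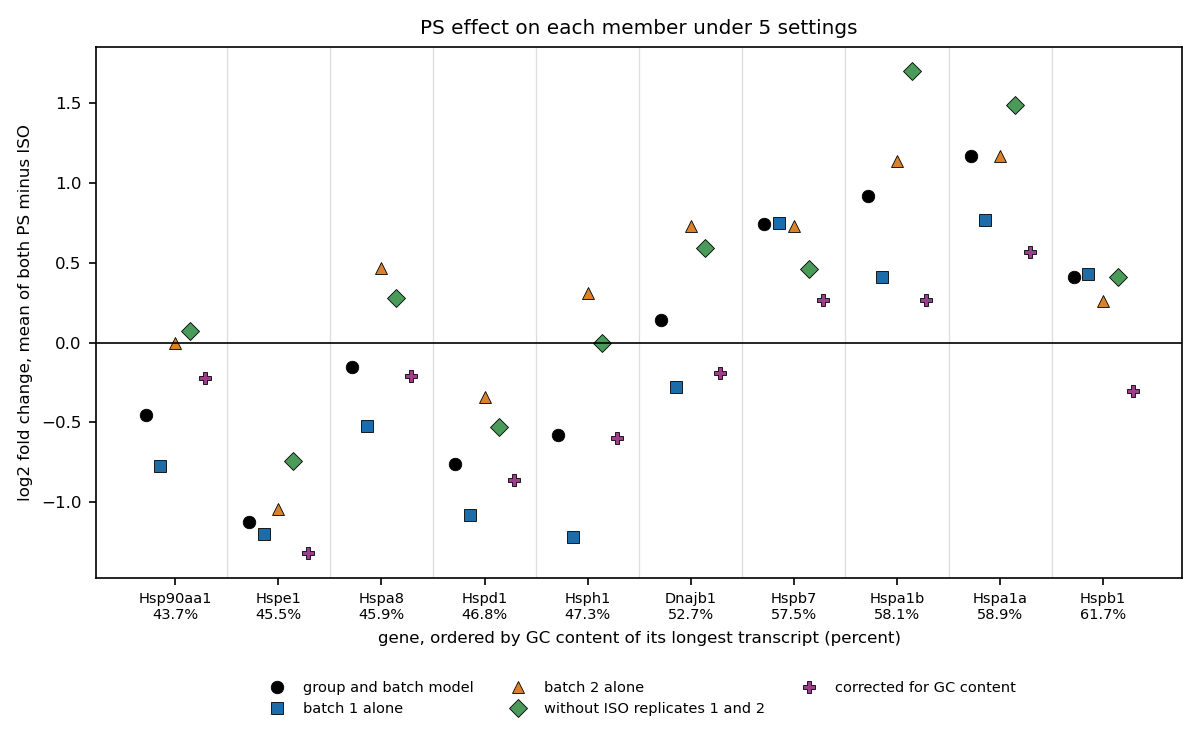
Log2 fold change over both PS sizes against ISO (vertical axis) of each chaperone gene, ordered by GC content, for the fit with group and batch, each batch alone, the fit without ISO replicates 1 and 2, and the fit corrected for GC content. Hspe1 and Hspd1 lie below 0 in every one of these fits, while Hspa8, Hsph1, Hsp90aa1, Dnajb1 and Hspb1 cross or touch 0.

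Among 95 other chaperone and heat shock factor genes in 7 lists, 93 were tested. These lists too were chosen with earlier results of these data known, so the counts and medians are descriptions. At 100 nm 2 rose and 10 fell, where 3.88% of all genes passed as higher and 5.69% as lower. At 1 µm 1 rose and 8 fell, where 2.89% of all genes passed as higher and 4.50% as lower. Over both sizes 3 rose and 16 fell, where 6.80% of all genes passed as higher and 10.9% as lower. The median log2 fold change of the 93 was -0.20 at 100 nm, -0.10 at 1 µm and -0.14 over both sizes, against -0.02, -0.00 and -0.01 for all genes.

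The heat shock factors Hsf1 and Hsf2 did not pass. Hsf1, the main stress activator, averaged 31.4 ± 5.80 CPM in 100 nm PS, 34.1 ± 9.16 CPM in 1 µm PS and 30.6 ± 6.51 CPM in ISO hearts (SD, n = 6 each), with a log2 fold change of 0.15 over both sizes (adjusted p = 0.468). Hsf2 averaged 11.4 ± 0.888, 11.5 ± 1.51 and 14.7 ± 5.66 CPM in the same order, a log2 fold change of -0.37 (adjusted p = 0.208). Hikeshi, which carries HSP70 into the nucleus during heat stress, fell by 0.74 (SE 0.12, adjusted p = 0.00194), and the scarce Hsbp1l1 fell by 1.03 (adjusted p = 0.0422). Of the 7 tested genes of this list, 2 fell and 0 rose over both sizes, where 10.9% of all genes passed as lower.

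Of 15 other mitochondrial chaperones and proteases, 4 fell and 0 rose over both sizes, with a median of -0.27, where 10.9% of all genes passed as lower and 6.80% as higher. Yme1l1, a protease of the inner membrane, averaged 45.2 ± 12.3 CPM in 100 nm PS, 40.7 ± 14.6 CPM in 1 µm PS and 64.5 ± 32.3 CPM in ISO hearts (SD, n = 6 each) and fell by 0.85 (SE 0.15, adjusted p = 0.00209). Dnajc19 and Dnajc15, J-domain proteins of the import motor at the inner membrane, fell by 1.08 (SE 0.24, adjusted p = 0.00784) and 1.12 (SE 0.27, adjusted p = 0.0112). Hspa9, the HSP70 of the mitochondrial matrix, averaged 394 ± 78.5, 467 ± 148 and 611 ± 154 CPM in the same order, with a log2 fold change of -0.50 over both sizes (adjusted p = 0.0701). Hspa9 was at -0.82 in batch 1 alone and -0.04 in batch 2 alone. In that order Dnajc19 was at -0.84 and -1.40, and Dnajc15 at -1.14 and -1.05.

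In the cytosol, 1 rose and 3 fell of 24 other HSP70, HSP110 and partner genes over both sizes. Among all genes 6.80% passed as higher and 10.9% as lower, which also stands beside the HSP90 count below. Dnaja2, an HSP40 partner, fell by 0.65 (SE 0.14, adjusted p = 0.00669) and St13, the HSP70-interacting protein Hip, fell by 0.45 (adjusted p = 0.0287). Hspa12b, a distant HSP70 relative of endothelial cells, rose by 0.70 (SE 0.21, adjusted p = 0.0284), beside endothelial markers of which 3 of 10 rose. Hspa12b was at 1.15 in batch 1 alone and 0.09 in batch 2 alone. In the same order St13 was at -0.66 and -0.17, and Dnaja2 at -0.69 and -0.60. Bag3, an HSP70 partner that works with small heat shock proteins in muscle, had a log2 fold change of -0.04 (adjusted p = 0.930). Of 12 HSP90 genes and partners, 1 rose and 3 fell: Unc45a, a myosin chaperone partner, rose by 0.50 (adjusted p = 0.00993), and Cacybp and Ptges3 (p23) fell by 0.86 (adjusted p = 0.00611) and 0.63 (adjusted p = 0.0179). Hsp90ab1, the constitutive HSP90, had a log2 fold change of 0.24 (adjusted p = 0.307).

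Of 16 chaperones of the endoplasmic reticulum, 1 rose and 2 fell over both sizes, with a median of 0.03. The shares of all genes, 6.80% higher and 10.9% lower, apply to this list and to those that follow. Canx (calnexin) fell by 0.53 (adjusted p = 0.0178), Dnajb9 fell by 0.77 (adjusted p = 0.0241) and the disulfide isomerase Pdia4 rose by 0.63 (adjusted p = 0.0197). Hspa5 (BiP), the HSP70 of this compartment, had a log2 fold change of -0.46 (adjusted p = 0.0894). Of 14 subunits of the cytosolic chaperonin CCT and of prefoldin, 2 fell and 0 rose, with a median of -0.31. Cct4 fell by 0.72 (adjusted p = 0.00543) and the prefoldin subunit Vbp1 fell by 0.85 (adjusted p = 0.0134). None of the 5 other small heat shock protein genes tested passed, and Cryab (alpha-B crystallin), an abundant partner of Hspb1, had a log2 fold change of 0.03 (adjusted p = 0.906).

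**Figure D5:**
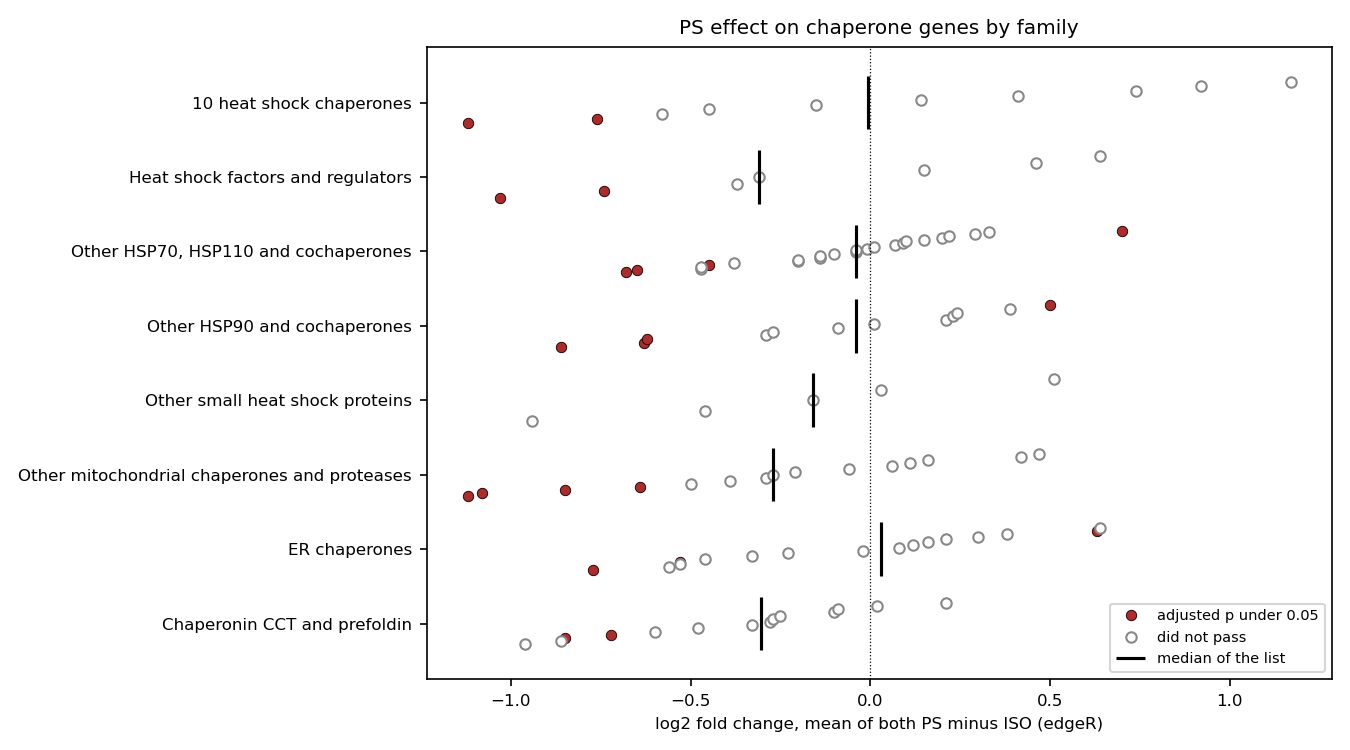
Log2 fold change over both PS sizes against ISO of the 10 heat shock chaperones and of 7 other chaperone lists, 1 point per gene, filled where edgeR's adjusted p was under 0.05, with a line at each list's median. Filled points lie mostly left of 0: 2 of 10 members and 16 of the 93 other genes fell, and 3 of the 93 rose. Among all 14623 genes 1595 fell and 995 rose.

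Between hearts, 3 of 45 pairs of members passed by Pearson's r, and 1 of them passed by Spearman's rho as well. The pairs were compared over the 18 libraries after group and batch means were removed, with p adjusted over the 45. The permutations treated the 18 values as independent, though removing those means leaves 14 degrees of freedom. Their p-values are therefore somewhat too low, and adjusted ones near the threshold may not hold. Hspa1a and Hspa1b had r = 0.86 (permutation p = 7.0e-05, adjusted 0.00315) and rho = 0.64 (permutation p = 0.0049, adjusted 0.0735), and these genes share reads. Their r was 0.66 without 1 µm PS replicate 6 and 100 nm PS replicate 1, the 2 farthest for Hspa1a, and 0.89 within either batch. Hsph1 and Hspd1 had r = 0.70 (permutation p = 0.00145, adjusted 0.0326) and rho = 0.80 (permutation p = 2.1e-04, adjusted 0.00945). Their r was 0.82 without ISO replicate 1 and 1 µm PS replicate 6, the 2 farthest for Hsph1. It was 0.57 within batch 1 and 0.92 within batch 2. For Hsp90aa1 and Hsph1, r was 0.68 (permutation p = 0.00263, adjusted 0.0394) and rho 0.54 (permutation p = 0.0218, adjusted 0.123). This relation rested partly on ISO replicates 1 and 2: r was 0.49 without them, 0.73 within batch 1 and 0.64 within batch 2.

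Over all 18 libraries, with log2 CPM centred on the batch mean, the genes most like each of 3 members were found among 10119 other genes of at least 5 CPM. These values are descriptions and hold the group differences as well. Nearest to Hspd1 were Ptgr2 (Pearson r 0.94), Plbd1 (0.93), Hbs1l (0.92), Gtpbp4 (0.92) and Pank1 (0.91). Hspb7 was matched most closely by Csdc2 (0.95), Nrap (0.94), Rubcn (0.93), Kifc3 (0.93) and Mrm1 (0.91). The closest to Hspa1b were Cpxm1 (0.80), Hspa2, Sik1 and Mob3a (0.75 each) and Klf4 (0.72). None of the 10119 genes searched, which leave out all members, followed Hspa1b as tightly as those beside Hspd1 and Hspb7. Hspa1b averaged 6.30 CPM, against 198 for Hspd1 and 1838 for Hspb7, and the part of low counts was not tested.

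Immediate early genes, transcription factors induced within minutes of a stimulus or of tissue handling, were measured beside the inducible HSP70 genes. The 18 genes summed to 414 to 658 CPM in 100 nm PS, 447 to 1057 CPM in 1 µm PS and 292 to 570 CPM in ISO hearts. Over both sizes 3 of the 18 rose and 0 fell, where 6.80% of all genes passed as higher and 10.9% as lower, and their median log2 fold change was 0.71. Their part in the levels of Hspa1a and Hspa1b was not tested.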

How the data were processed

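Poly(A) RNA of 18 mouse hearts was sequenced as paired-end reads by 2 providers, per the labels. The table of batch 1 holds deposited raw counts per gene under Entrez identifiers, and that of batch 2 holds estimated counts deposited under Ensembl identifiers, of which 19.6% of values above 0 were not whole and were rounded. HISAT2 2.0.5, StringTie 1.3.3b, featureCounts 1.5.0-p3, fastp, DESeq2 and the builds GRCm39 and mm39 are named in the submitters' processing notes, without saying which made which table. Tables were joined by identifier (22144 genes) or symbol (13416 genes). The joined genes hold 98.9% to 99.5% of counts in batch 1, and in batch 2 93.1% to 95.8% in PS and 85.2% to 87.4% in ISO libraries. The 215 entries of batch 1 with no name, 0.16% to 0.39% of counts, were left out.

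edgeR 4.0.16 (R 4.3.3; TMM factors, filterByExpr with a minimum count of 10, robust quasi-likelihood fit) was fitted to the 18 libraries together with group and batch as terms (14 residual degrees of freedom), and p-values were adjusted by Benjamini-Hochberg over 14623 genes. CPM use TMM-scaled totals. DESeq2 1.42.0, RLE factors, other filters, single batches, left-out libraries, a replicate block, a GC correction (spline, 5 degrees of freedom) and the summed Hspa1 pair were alternatives. The fit was tested on simulated data. GC content and length are those of the longest GENCODE transcript of each gene. The members and gene lists were chosen with earlier results of these data known. Named from each list are up to 3 genes with the smallest p that passed over both sizes, plus Hsf1, Hsf2, Hspa5, Hsp90ab1, Hspa9, Cryab and Bag3, and the 5 genes most like Hspa1b, Hspb7 and Hspd1. Precision is limited by 6 libraries per group and, for the Hspa1 pair, by counts as low as 27.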

Additional observations from a re-analysis of the deposited data

Results flagged for a closer look

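Single libraries stood far from the rest of their group of 6 in 13 of the 30 member and group combinations examined. The measure was the ratio of the gap to the group's range, flagged above 0.625. About 1 of 20 groups exceeds that where values are normally distributed and come from 1 population. CPM were used without logs, where high values stand out more than low ones, and each group mixes 2 batches. The 13 of 30 therefore cannot be set against that rate. In 100 nm PS hearts, replicate 1 was high for Hspa1a (11.5 CPM, others 2.90 to 4.88) and Hspa1b (12.1 CPM, others 2.99 to 4.65). Replicate 6, the only batch 2 heart of that group, was high for Hspa8 (2176 CPM, others 915 to 1143) and Hspb7 (3381 CPM, others 1017 to 1757).

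In 1 µm PS hearts, replicate 6 was high for Hspa1a (31.8 CPM, others 3.07 to 7.42), Hspa1b (28.5 CPM, others 3.88 to 12.7) and Dnajb1 (51.1 CPM, others 21.5 to 28.3), and replicate 5 for Hspb7 (6157 CPM, others 1329 to 1929). Both are batch 2 hearts.

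In ISO hearts, replicate 1 was high for Hsp90aa1 (347 CPM, others 77.9 to 125) and Hsph1 (99.6 CPM, others 21.1 to 39.5). Replicate 2, the library with the fewest genes detected, was high for Dnajb1 (38.5 CPM, others 14.0 to 22.8) and Hspe1 (336 CPM, others 77.3 to 162), and replicate 5 for Hspa1a (6.85 CPM, others 2.09 to 3.42). All of these libraries were high rather than low.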

How the results depend on the processing

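Of 1359 recomputed values, 1197 were kept. A fold change was kept if it held its direction and its side of the threshold, so many kept ones passed in neither fit. A count of genes passing was kept if it stayed close to the reported count. Of the rest, 64 counts moved, 45 fold changes turned sign, 30 no longer passed and 23 newly passed. Members passing at 100 nm, 2 in the fit reported, were 0 without the batch term, 1 in batch 1 alone, 0 in batch 2 alone, 1 without ISO replicates 1 and 2 together, 0 with GC correction, and 0 to 2 with a library left out, 0 of them without 100 nm PS replicate 6. At 1 µm, 1 as reported, they were 4 with DESeq2, 0 without the batch term, 0 in batch 2 alone, 3 without ISO replicates 1 and 2, 0 with GC correction, and 0 to 2 with a library left out. Over both sizes, 2 as reported, they were 5 with DESeq2, 0 in batch 2 alone, and 2 to 5 with a library left out, 5 of them without ISO replicate 1. Without ISO replicates 1 and 2 together the count over both sizes was also 2, but Hspd1 did not pass (adjusted p = 0.0955) and Hspa1b did (1.70, adjusted p = 0.0381). Other chaperone genes passing were 12 at 100 nm as reported, 7 with no filter, 19 with DESeq2, 0 without the batch term, 0 in batch 2 alone, 0 with GC correction, and 1 to 21 with a library left out. At 1 µm they were 9 as reported, 4 with no filter, 17 with DESeq2, 0 without the batch term, 4 in batch 1 alone, 0 in batch 2 alone, 0 with GC correction, and 2 to 15 with a library left out. Over both sizes they were 19 as reported, 31 with DESeq2, 6 without the batch term, 5 in batch 2 alone, and 15 to 27 with a library left out. Over all genes, 1399 passed at 100 nm as reported, 2607 with DESeq2, 717 with no filter, 0 without the batch term and 1 with GC correction. At 1 µm it was 1081 as reported, 2322, 481, 0 and 2 in that order, and over both sizes 2590 as reported, 709 without the batch term and 1829 with GC correction. With a library left out the counts over all genes ran from 170, without 100 nm PS replicate 6, to 2283 at 100 nm and from 265, without 1 µm PS replicate 1, to 2334 at 1 µm, both highest without ISO replicate 3. The cause was not tested. Batch 2 alone has fewer libraries, 1 of them at 100 nm.

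Replicate numbers do not pair the hearts: over 18 pairs of same-numbered libraries the correlation of deviations ran from -0.44 to 0.23, with 3 over 0.1. With the replicate block 0 members passed at 100 nm, 0 at 1 µm and 1 over both sizes, and 0, 0 and 4 other chaperone genes.

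Fold changes that turned sign did not pass in the reported fit or after turning. In batch 2 alone, Hspa8 was 0.45 at 100 nm, 0.49 at 1 µm and 0.47 over both sizes, Dnajb1 0.31 at 100 nm, Hsp90aa1 0.13 at 1 µm and 0.00 over both, and Hsph1 0.76 at 1 µm and 0.31 over both. In batch 1 alone, Dnajb1 was -0.12 at 1 µm and -0.28 over both. Without ISO replicates 1 and 2 together, Hspa8 was 0.19 at 100 nm, 0.36 at 1 µm and 0.28 over both, Hsp90aa1 0.01, 0.13 and 0.07, Dnajb1 0.35 at 100 nm, and Hsph1 0.11 at 1 µm and 0.00 over both. With GC correction, Hspa1b was -0.08 at 100 nm, Hspb1 -0.31 at 100 nm, -0.30 at 1 µm and -0.30 over both, and Dnajb1 -0.19 over both. Between particle sizes, Hspa1a was 0.29, Hspa1b 0.05, Hsph1 0.09 and Hspd1 0.04 in batch 1 alone, and Hspb1 was -0.09 without the batch term, -0.37 in batch 2 alone and -0.01 with GC correction.

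With a library left out, the ranges of values that crossed 0 were -0.71 to 0.11 at 100 nm, -0.51 to 0.21 at 1 µm and -0.61 to 0.16 over both sizes for Hsp90aa1. They were -0.26 to 0.20 at 100 nm and -0.02 to 0.45 over both for Dnajb1, -0.14 to 0.09 at 1 µm for Hspa8, and -0.67 to 0.02 at 1 µm for Hsph1. Between particle sizes they were -0.80 to 0.14 for Hspa1a and -0.02 to 0.15 for Hspb1. Low counts limit the Hspa1 pair most.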
